A study of Mus musculus with 2 samples.

Results

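The unfolded protein response and the secretory chaperones are described here as a module of 34 named genes. They were chosen by symbol, with earlier results of these data known, and all 34 are among the 32285 features of both count matrices. The rule itself uses no measured value of a member. For the description they were placed in 4 branches by textbook role. The IRE1-XBP1 branch held 14 genes, the ATF6 branch 11, the PERK-ATF4 branch 4, and the lectin chaperones and disulfide isomerases 5. The module was read in 8 gates, which are sets of cells defined by minimum counts of a few cell type genes, in each of the 2 libraries.

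The libraries are 10x Chromium 3′ single-cell RNA libraries from liver tumours of Crtc2+/+ and Crtc2-/- mice, 1 library per genotype. CRTC2 is a coactivator of CREB. All mice, controls included, received 25 mg/kg of the liver carcinogen DEN (diethylnitrosamine) by intraperitoneal injection at 2 weeks of age and a NASH diet, which produces fatty and inflamed liver, from week 8 to week 26. How many animals or tumours entered a library, and which part of Crtc2 is deleted, are unknown here. With 1 library per genotype no difference between genotypes has a replicate check, so no p-value is given. Every interval below is a 95% interval that covers counting error only, exact Poisson for a level and exact conditional for a ratio of counts.

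The endoplasmic reticulum folds proteins bound for secretion, and the unfolded protein response adjusts its capacity through 3 sensors in its membrane. IRE1 (Ern1) splices the Xbp1 messenger, and XBP1 protein then drives genes of translocation, folding and degradation. ATF6 is cut in the Golgi and drives chaperone genes, and PERK phosphorylates a translation factor so that ATF4, CHOP (Ddit3) and amino acid synthesis genes are induced. XBP1 is known to be needed for antibody-secreting plasma cells, and the liver uses the same pathway to secrete plasma proteins. Counts per gene do not separate spliced from unspliced Xbp1, nor cut from uncut ATF6.

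The promoters of some chaperone genes carry elements through which ATF6 and XBP1 are known to act, so a few are shown before the levels. Of the 34 members, 29 matched a promoter in RefSeq's table for GRCm38.p6, and the 250 bases before the start were searched on both strands. The ER stress response element, searched as CCAAT and CCACG with any 9 bases between, was found in 9 members: Dnajc3, Syvn1, Derl3, Hspa5, Hsp90b1, Pdia6, Creld2, Calr and Canx. It was found in 37 of all 32851 promoters of that length in the table, 0.113%. The shorter ERSE-II, searched as ATTGG and CCACG with any 1 base between, was found in Herpud1 and in 0.0304% of all promoters. TGACGTGG, the XBP1 element called UPRE, was found in Txndc5 and in 0.563% of all promoters. The CRE of CREB, TGACGTCA, was in none of the 29 and in 1.55% of all promoters. For the ATF4 element (CARE) only the spelling TTGCATCA was searched. It was in Herpud1 alone of the members and in 0.791% of all promoters. Other spellings of the elements were not searched, so a member without a match here can still hold one. The motifs share letters in part (CCACG ends both ERSE forms), but were searched apart. By branch, ERSE or ERSE-II was found in 5 of 8 matched ATF6 members, 3 of 12 IRE1-XBP1 members, 2 of 5 lectin chaperones and isomerases, and 0 of 4 PERK-ATF4 members. A match is a match of letters and not a site of binding. The elements were known from this pathway beforehand, so the counts beside all promoters are no independent test. The 6 sequences below run 5′ to 3′ on the gene's strand up to the base before the RefSeq start, with motif matches in capitals. Hspa5 and Hsp90b1 encode the main chaperones, Creld2 and Derl3 had the largest plasma cell differences among the promoters with ERSE, Herpud1 holds ERSE-II and CARE, and Ddit3 is shown as a PERK-ATF4 member with no match. Distances give the position of the last base of the match, with the base next to the start counted as 1.
Hspa5, chr2:34771840-34772089, plus strand, ERSE 47 bases before the start: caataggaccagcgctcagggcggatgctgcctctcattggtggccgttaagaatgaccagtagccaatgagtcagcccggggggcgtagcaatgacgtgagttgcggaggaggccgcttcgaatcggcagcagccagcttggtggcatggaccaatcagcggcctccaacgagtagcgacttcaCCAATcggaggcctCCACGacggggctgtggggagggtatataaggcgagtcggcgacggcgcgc
Hsp90b1, chr10:86705445-86705694, minus strand, ERSE 194 and 89 bases before the start: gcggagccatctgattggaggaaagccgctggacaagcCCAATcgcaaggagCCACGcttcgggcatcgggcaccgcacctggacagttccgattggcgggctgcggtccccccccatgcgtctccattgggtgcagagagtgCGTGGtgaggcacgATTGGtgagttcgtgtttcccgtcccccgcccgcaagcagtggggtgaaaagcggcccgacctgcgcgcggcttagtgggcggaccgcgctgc
Creld2, chr15:88819396-88819645, plus strand, ERSE 108 bases before the start: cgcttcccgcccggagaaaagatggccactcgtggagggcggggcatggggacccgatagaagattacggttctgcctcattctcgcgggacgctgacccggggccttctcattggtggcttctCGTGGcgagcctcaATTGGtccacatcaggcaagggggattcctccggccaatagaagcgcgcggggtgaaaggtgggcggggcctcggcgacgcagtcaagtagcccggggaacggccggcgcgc
Derl3, chr10:75893148-75893397, plus strand, ERSE 138 bases before the start: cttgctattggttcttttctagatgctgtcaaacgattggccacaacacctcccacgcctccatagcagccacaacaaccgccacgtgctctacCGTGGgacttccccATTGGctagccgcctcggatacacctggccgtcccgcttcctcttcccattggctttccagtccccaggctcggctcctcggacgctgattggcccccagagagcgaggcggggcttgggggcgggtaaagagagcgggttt
Herpud1, chr8:94386179-94386428, plus strand, ERSE-II 42 and CARE 105 bases before the start: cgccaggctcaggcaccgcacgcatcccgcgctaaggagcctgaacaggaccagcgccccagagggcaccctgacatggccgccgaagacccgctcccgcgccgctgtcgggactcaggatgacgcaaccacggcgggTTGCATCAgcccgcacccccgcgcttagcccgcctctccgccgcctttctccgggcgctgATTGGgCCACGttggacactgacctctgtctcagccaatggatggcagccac
Ddit3, chr10:127290543-127290792, plus strand, no match: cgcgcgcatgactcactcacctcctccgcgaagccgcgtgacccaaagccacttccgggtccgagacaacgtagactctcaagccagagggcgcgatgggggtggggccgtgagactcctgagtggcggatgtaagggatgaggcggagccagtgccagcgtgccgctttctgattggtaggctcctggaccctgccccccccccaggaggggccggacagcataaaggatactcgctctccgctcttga

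The matrices held 9707 and 9242 barcodes, Crtc2+/+ named first here and below, with 81487425 and 78040008 UMIs (unique molecules counted), and 9327 and 8901 cells were kept. The libraries share 29 barcodes. Crtc2 itself was at 7.97 counts per 1e6 UMIs (CPM; interval 7.35 to 8.63) and 5.43 CPM (4.91 to 5.99), so the library labelled Crtc2-/- still held Crtc2 reads, and 3′ counts outside a deleted part check nothing. Gates held 788 and 1708 B cells, 270 and 347 plasmacytoid dendritic cells, 181 and 160 keratin-high and 86 and 79 keratin-low hepatocytes, 4929 and 1662 macrophages, 75 and 310 neutrophils, and 1922 and 2608 T cells. No Crtc2+/+ cell passed the plasma cell gate (Jchain of at least 50 UMIs; its highest cell had 36), so the share is at most 0.0322%, taken as 3 counts of the total. In the Crtc2-/- library 32 cells did, 0.360% (exact binomial interval 0.246 to 0.507%). Gates are not exclusive. Of the B gate 29.8% and 27.8% also passed the macrophage gate, and of the plasmacytoid gate 64.8% and 0 cells, so values for cells passing 1 gate only are added where they differ most. The plasma cell markers, Xbp1 and Derl3 left out, summed to 41330 CPM in the plasma gate with none at 0, the B cell markers to 3426 and 3770 CPM in the B gate, and the plasmacytoid markers to 5969.6 and 16165 CPM in their gate. Summed macrophage genes in the B gate were at 10281 and 7381 CPM for all its cells and at 234 and 229 CPM for cells passing 1 gate only.

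Across the gates, the module stood highest in plasma cells. Its 34 genes summed to 24702 CPM there, against 2205 to 6556 CPM in the 14 other gate and library sums. Neutrophils were lowest, at 2219.8 and 2205 CPM, and T cells were at 3077 and 3571 CPM (2969 and 3298 in cells passing 1 gate only). B cells were at 4104 and 4010 CPM, and below T cells in cells passing 1 gate only, at 2482 and 2840 CPM. Of the others, hepatocytes were at 3926 and 4998 (keratin-high) and 4762 and 4658 (keratin-low), macrophages at 5197 and 5008, and plasmacytoid dendritic cells at 5581 and 6556 (6480.4 and 6523 in cells passing 1 gate only). A list of 16 cytosolic heat shock and dissociation genes did not share that order. It was highest in neutrophils of the Crtc2+/+ library, at 11456 CPM. In the Crtc2-/- library it was highest in keratin-high hepatocytes, at 8108 CPM, with neutrophils at 6986 CPM. By CPM of all UMIs it was lowest in plasma cells, at 3214 CPM. Immunoglobulin genes took 41.8% of plasma UMIs and at most 0.574% in the other gates as defined, which lowers plasma CPM of other genes. Levels by gate were not rescaled for this, so the low place of plasma cells for this list is given for this scale only.

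**Figure D1:**
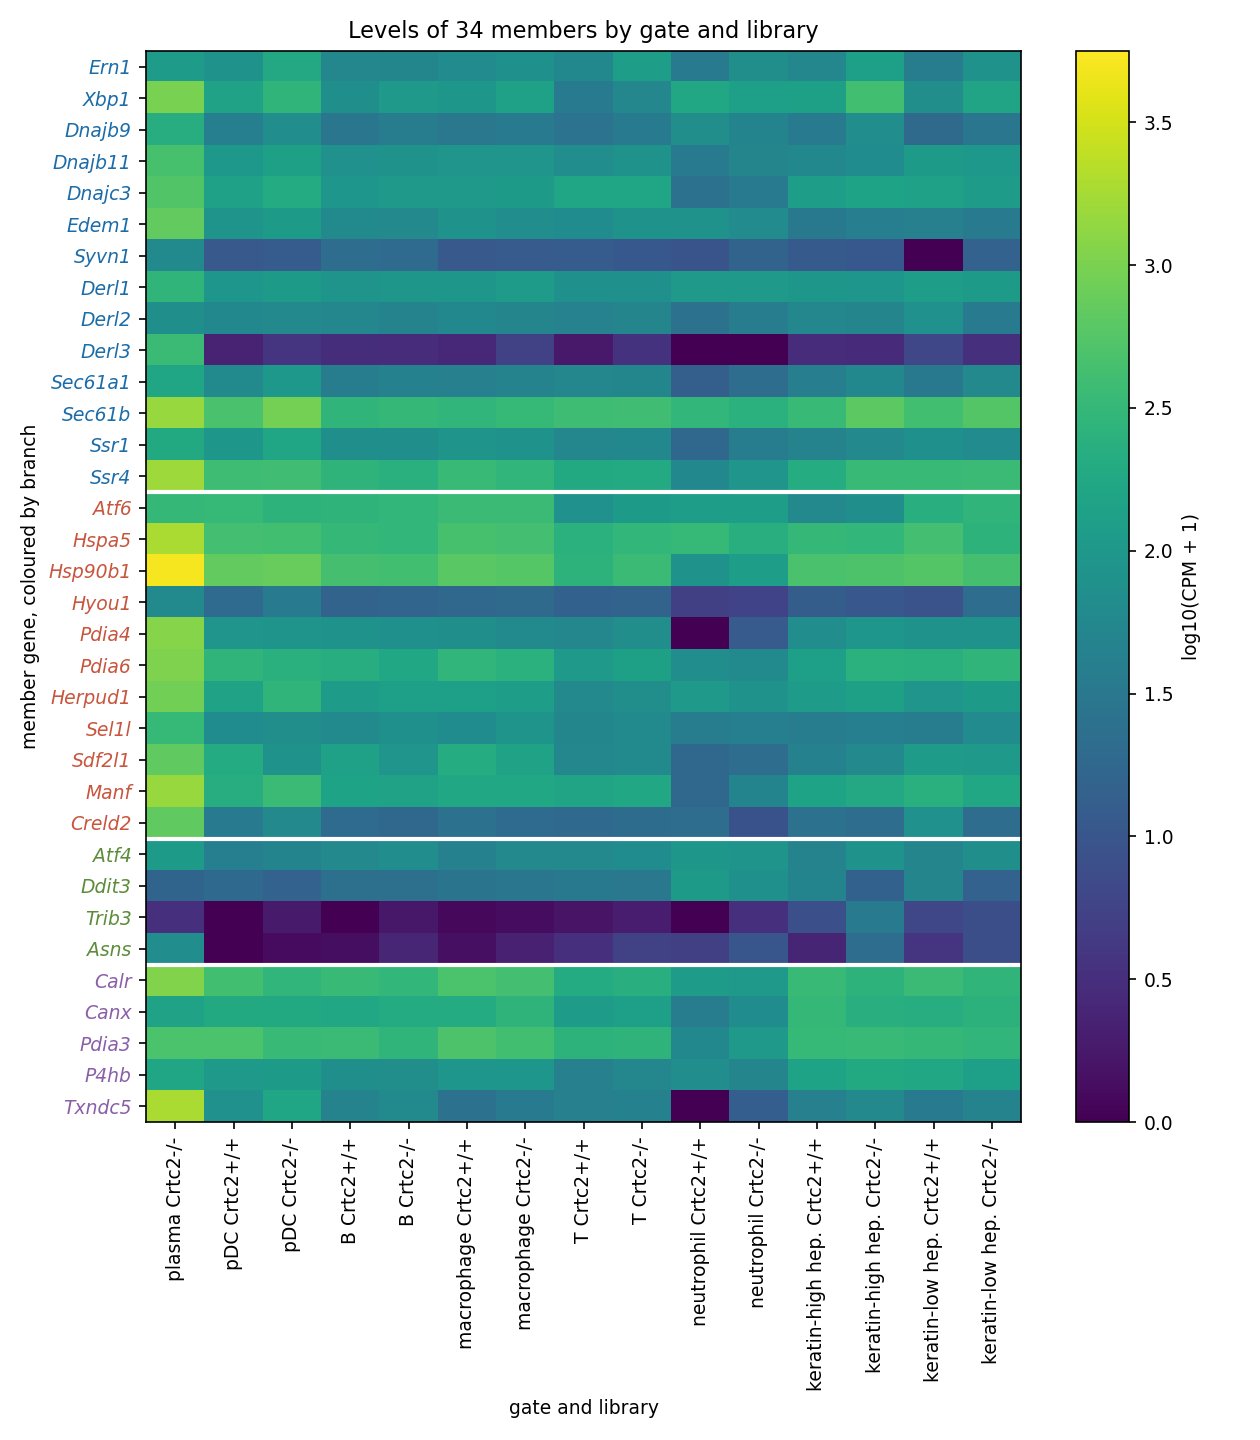
Level of each of the 34 members (rows, in 4 branches separated by white lines) in each gate and library (columns; plasma cells only in the Crtc2-/- library), as log10 of CPM plus 1. The plasma cell column is the brightest for most chaperones and the 2 neutrophil columns are dark for Pdia4, Txndc5 and Derl3.

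The 4 transcription factors of the response had different orders over the gates. Xbp1, on chromosome 11 (5520659 to 5525893, plus strand, GRCm38), was at 976 CPM (911 to 1045) in plasma cells. Below them the order differed by library. Keratin-high hepatocytes were at 133 and 414 CPM, plasmacytoid dendritic cells at 143 and 280, neutrophils at 172 and 130, keratin-low hepatocytes at 69.1 and 153, macrophages at 97.1 and 140, B cells at 73.5 and 101, and T cells at 35.1 and 53.7. Neutrophils thus had the highest value of the 7 gates in the Crtc2+/+ library, with an interval (124 to 234) that overlapped those of plasmacytoid and keratin-high cells and lay above those of macrophages (94.4 to 99.9) and keratin-low cells (45.2 to 101). In the Crtc2-/- library the intervals of neutrophils, keratin-low hepatocytes and macrophages overlapped and have no order. T cells had the lowest values with the gates as defined, but in cells passing 1 gate only B cells, at 34.4 and 41.6 CPM, overlapped T cells, at 30.6 and 37.4 CPM, in their intervals. Plasmacytoid cells were then at 263 and 280.5 CPM.

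Atf6, on chromosome 1 (170704674 to 170867771, minus strand), did not stand out in plasma cells by CPM of all UMIs. It was at 314 CPM (277 to 354) there, between macrophages at 361 and 358 and B cells at 275 and 299 CPM, and the plasmacytoid gate was at 319.97 and 261 CPM. T cells at 77.2 and 109 CPM and keratin-high hepatocytes at 57.9 and 71.7 CPM were lowest. In B cells passing 1 gate only Atf6 was at 162 and 206 CPM. Plasma values in these orders, also those of Atf4 and Ddit3 below, are lowered by the immunoglobulin share given above. The orders were not rescaled for it. Without immunoglobulin and gate genes in the total, the plasma over B log2 ratio of Atf6 was 0.81, against 0.07 with them. No source used here says whether reads in introns were counted; levels of genes with long introns such as Atf6 and Ern1 can depend on it, and this was not tested. Atf4, on chromosome 15 (80255184 to 80257541, plus strand), encodes the factor of the PERK arm and is controlled to a large part by translation. It spanned 40.3 CPM in the Crtc2+/+ plasmacytoid gate to 108 CPM (86.8 to 132) in plasma cells. The neutrophil intervals (61.3 to 145 and 70.8 to 103) overlapped that of plasma cells, so the top of this order is not resolved. Ddit3, on chromosome 10 (127290774 to 127296288, plus strand), encodes CHOP, the factor tied to cell death under prolonged stress. It was highest in neutrophils, at 109 and 76.0 CPM, and was at 15.2 CPM (8.10 to 26.0, 13 UMIs) in plasma cells, among the lowest of all gates.

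**Figure D2:**
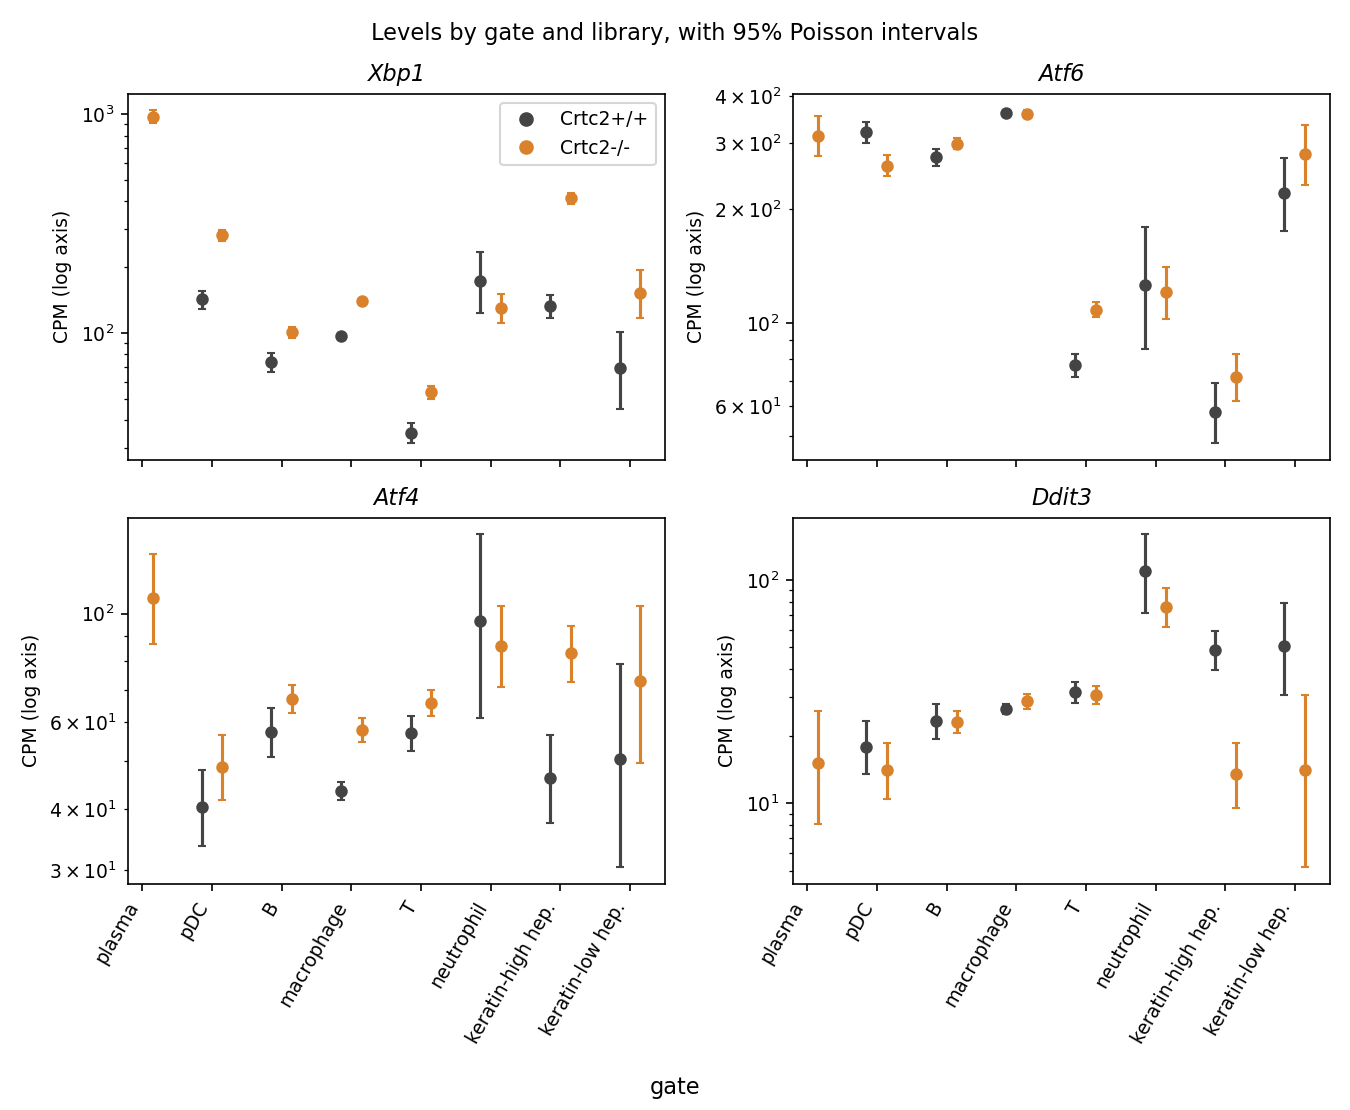
Levels of Xbp1, Atf6, Atf4 and Ddit3 in CPM (logarithmic axis) by gate, with 95% Poisson intervals; grey points are the Crtc2+/+ library and orange points the Crtc2-/- library. On this scale, which keeps immunoglobulin UMIs in the total, Xbp1 peaks in plasma cells at 976 CPM and Atf6 in macrophages at 361 CPM. Ddit3 peaks in Crtc2+/+ neutrophils at 109 CPM.

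Depth differs between gates, from a median of 1979.5 UMIs in Crtc2+/+ keratin-low hepatocytes to 25324.5 in plasma cells, so shares of cells with a UMI were also read after each cell was thinned to 1000 UMIs. Xbp1 was seen in 17 of 32 plasma cells so thinned, 53.1% (exact binomial interval 34.7 to 70.9%), against 3.34% and 3.91% of cells in the T gate, where its level was lowest. For Atf6 the shares were 28.1% of plasma cells and 6.99% and 8.25% of T cells, and for Atf4 they were 9.38% and 5.38% and 6.37%. The Atf4 interval in plasma cells (1.98 to 25.0%) spans the T cell shares, so at this depth a difference was not detectable. Without thinning all 32 plasma cells had an Xbp1 UMI, and 14.3% and 18.3% of T cells did.

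The comparison of plasma cells with B cells asks which members are higher in the antibody-secreting state than in the B cell state, and could be made only in the Crtc2-/- library. Most of the module was higher in plasma cells, with the IRE1-XBP1 and ATF6 branches, Txndc5 and Asns furthest, while Atf6, Ddit3, Canx, Derl2, Atf4 and Pdia3 lay within 2-fold. For the last 3 that depended on the scaling: without immunoglobulin and gate genes in the total, the log2 ratios of Derl2, Atf4 and Pdia3 were 1.23, 1.33 and 1.54. A member is counted as higher when its log2 ratio of CPM, with 10 CPM added to both, is at least 1. By that count 27 of 33 measured members were higher and none was lower, where 2.89% of all 12603 genes measured were higher and 25.4% lower. The members were chosen with earlier results of these data known, so the count describes them and is no independent test. The count was again 27 of 33 in cells passing 1 gate only (background 3.85%) and 0 lower (background 30.9%). It was 27 of 33 as well without 5 plasma cells that held at least 10 UMIs of Ms4a1 or of the Cd3 genes, a choice made after the values were seen. The median log2 ratio was 2.27 for the members and -0.49 for all genes. It was 2.72 in the ATF6 branch, 2.22 in the IRE1-XBP1 branch, 1.05 for the lectin chaperones and isomerases and 0.61 over the 3 measured PERK-ATF4 members. Plasma cells give 41.8% of their UMIs, at the median, to immunoglobulin genes, which lowers the CPM of all others; with scaling by edgeR's TMM the median of all genes moved by 0.29. Atf6 moved further, from 0.07 to 0.79, as did Hspa5, from 2.59 to 3.32.

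The sensor and factor of the IRE1-XBP1 branch were both higher in plasma cells. Xbp1 was at 976 CPM against 101 CPM in B cells, 9.69-fold (8.87 to 10.6). Among cells passing 1 gate only it was at 1008 against 41.6 CPM. Ern1, which encodes IRE1 (chromosome 11, 106394650 to 106487852, minus strand), was at 118 against 51.6 CPM, a log2 ratio of 1.06, which dropped to 0.97 when called doublets were kept. Among the chaperones that assist HSPA5, Dnajb9 (ERdj4) was at 219 against 37.6 CPM, Dnajb11 (ERdj3) at 461 against 80.9 CPM and Dnajc3 (p58IPK) at 538 against 101 CPM. All 3 were over 5-fold higher.

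Genes of ER-associated degradation, which carries misfolded proteins out to the proteasome, were also mostly higher. Derl3, a derlin of the export channel (chromosome 10, 75893413 to 75895941, plus strand), was at 363 CPM (310 UMIs) against 2.01 CPM (26 UMIs), a ratio of 180.3 (121 to 280.4), the largest of all members by ratio. Outside plasma cells it was at no more than 5.32 CPM in any gate. Its relatives differed less, Derl1 at 288 against 96.4 CPM and Derl2 at 72.6 against 46.8 CPM, with a log2 ratio of 0.54. Edem1, which marks misfolded glycoproteins for disposal, was at 694 against 56.5 CPM, 12.3-fold. Syvn1, the ubiquitin ligase HRD1 (chromosome 19, 6046576 to 6053712, plus strand), was at 60.9 against 19.6 CPM, with a log2 ratio of 1.26 that was 0.84 in cells passing 1 gate only.

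The translocation genes of the branch were higher too. Sec61b, a subunit of the channel through which nascent chains enter, was at 1462 against 315 CPM, and Sec61a1, the channel's pore, at 158 against 43.7 CPM. Of the translocon-associated proteins, Ssr4 was at 1576 against 240.4 CPM and Ssr1 at 188 against 73.8 CPM. Log2 ratios in this group ran from 1.24 (Ssr1) to 2.66 (Ssr4).

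In the ATF6 branch every gene except Atf6 itself was at least 2-fold higher in plasma cells. Atf6 was at 314 against 299 CPM, 1.05-fold (0.924 to 1.19), an interval that spans 1, and its log2 ratio of 0.07 was 0.79 with TMM scaling. Hspa5 encodes BiP, the main HSP70 of the compartment (chromosome 2, 34771970 to 34777547, plus strand), and was at 1869 against 302 CPM, 6.19-fold (5.83 to 6.56). Hsp90b1 encodes GRP94, the HSP90 of the compartment (chromosome 10, 86690209 to 86705509, minus strand), and was at 4992 against 414 CPM, 12.1-fold (11.6 to 12.6). The isomerase Pdia4 was at 1171 against 74.2 CPM and Pdia6 at 1069.9 against 177 CPM. The small ER proteins Creld2 and Manf, both secreted under stress, were at 693 against 17.7 CPM and at 1495 against 143 CPM. Creld2 was thus 39.1-fold higher (33.5 to 45.7), the largest ratio in this branch. Herpud1, an organiser of the degradation complex, was at 905 against 129 CPM, and Sel1l, the partner of HRD1, at 325 against 74.9 CPM. Sdf2l1, a cofactor of BiP, was at 680.1 against 89.4 CPM and Hyou1, its nucleotide exchange factor, at 59.7 against 15.9 CPM, the smallest log2 ratio of the called genes here at 1.43.

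The PERK-ATF4 branch was split. Asns, the asparagine synthetase (chromosome 6, 7675169 to 7693254, minus strand), was at 67.9 CPM (58 UMIs) against 1.55 CPM (20 UMIs), 43.9-fold (26.0 to 77.0). Atf4 was at 108 against 67.0 CPM, a log2 ratio of 0.61, and Ddit3 at 15.2 against 23.1 CPM, a ratio of 0.657 (0.346 to 1.14) whose interval spans 1 and whose log2 value of -0.39 became 0.09 with TMM scaling. Trib3, the pseudokinase induced by CHOP, had 2 and 10 UMIs and was not compared. Of the lectin chaperones and isomerases, Txndc5 stood apart at 1876 against 59.9 CPM, 31.3-fold (28.7 to 34.2). The soluble lectin Calr was at 1091 against 303 CPM and the isomerase P4hb at 159 against 71.4 CPM. Pdia3, the isomerase that works with the lectins, was at 492 against 281 CPM (log2 ratio 0.79), but at 463 against 142 CPM in cells passing 1 gate only (1.63). The membrane lectin Canx was at 142 against 201 CPM (ratio 0.706, 0.584 to 0.848), a log2 ratio of -0.47 that became 0.23 with TMM scaling, and in cells passing 1 gate only it was at 136 against 129 CPM.

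**Figure D3:**
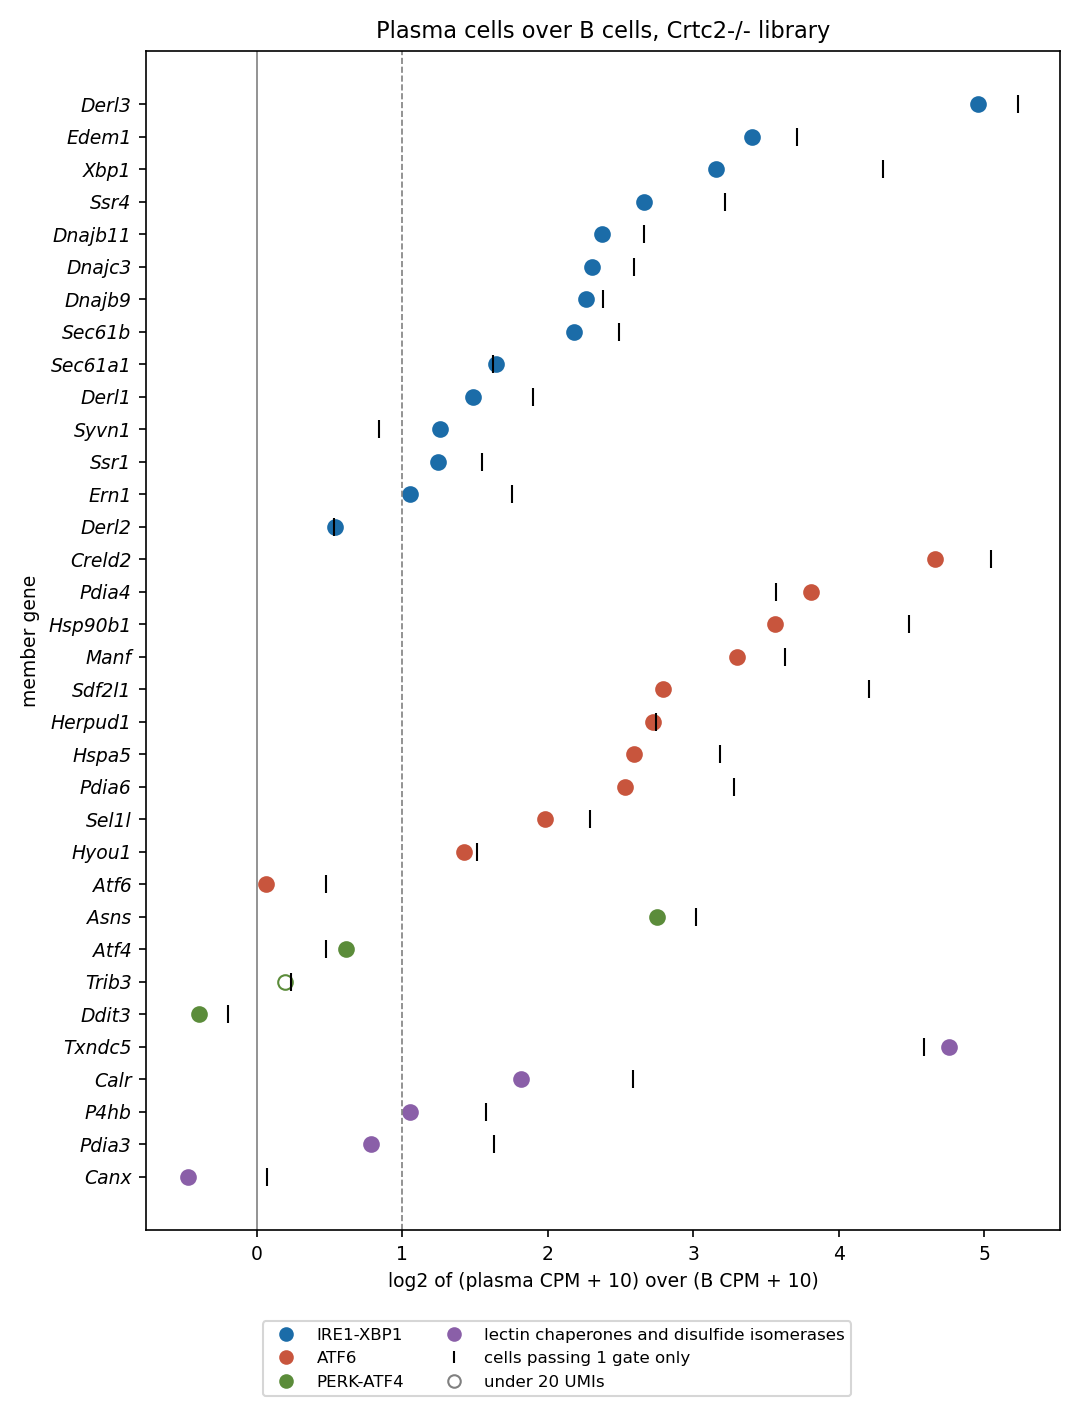
Log2 ratio of plasma over B cell CPM (10 CPM added to both) for each member in the Crtc2-/- library, coloured by branch; vertical ticks are cells passing 1 gate only, the open circle (Trib3) has under 20 UMIs, and the dashed line marks 2-fold. Derl3, Txndc5 and Creld2 lie furthest right, and Atf6, Ddit3 and Canx lie near or below 0.

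Members with and without the promoter elements were both mostly higher in plasma cells. Of the 10 members whose promoters held ERSE or ERSE-II, as printed above for Hspa5, Hsp90b1, Creld2, Derl3 and Herpud1, 9 were higher in plasma cells, with a median log2 ratio of 2.56. Of the 18 measured members with a promoter but neither element, 14 were higher, with a median of 2.22. Canx, with ERSE, was not higher, and Xbp1, Edem1 and Pdia4, without a match in this window, were.

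The other genes of the pathway, listed apart from the members, were less uniform. Of 42 further XBP1-linked secretory genes measured, 30 were higher and 0 lower, with a median log2 ratio of 1.55. Mzb1, a plasma cell co-chaperone, was at 4612 against 163 CPM, the isomerase Fkbp11 at 263 against 4.57 CPM and the signal peptidase subunit Sec11c at 1854 against 152 CPM. At the other end were the oxidase gene Ero1lb (log2 ratio -0.55), Srp14 of the signal recognition particle (-0.32) and the isomerase Pdia5 (0.00). Of 11 further ATF6-linked genes, 5 were higher, with Ppib at 1250.1 against 311 CPM, and the median was 0.53. Of 29 further ATF4-linked genes, 11 were higher and 3 lower, with a median of 0.28. The serine synthesis gene Phgdh was at 215 against 18.3 CPM, Atf5 at 72.6 against 5.50 CPM and the proline synthesis gene Pycr1 at 31.6 against 0.155 CPM, while Atf3 was lower at 15.2 against 76.3 CPM. The heat shock list had a median of -0.38.

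The 32 plasma cells varied widely in the module. Per 10000 UMIs outside immunoglobulin genes, the members took 108 in the lowest cell, 422 at the median and 807 in the highest, and Xbp1 had from 3 to 50 UMIs per cell. The share of immunoglobulin UMIs ran from 8.82% to 76.2%. Across these cells, which share 1 library, Spearman's rho between the module and the immunoglobulin share was -0.06, and between the module and total UMIs 0.03, so neither ordered the cells by it. Mki67, a cycling gene, was seen in 18 of them and the B cell gene Ms4a1 in 8. Genes of other cells stood in those lowest for the module: the lowest cell held 32 Ms4a1 UMIs, and the next 2 held 33 and 42 UMIs of the T cell genes Cd3d, Cd3e and Cd3g. Mki67 was not confined to such cells, with 18 UMIs in the lowest cell and 23 in the cell at 778. In all, 4 of the 32 also passed the T cell gate and 1 the plasmacytoid gate. Without the 5 cells with at least 10 UMIs of Ms4a1 or Cd3, the lowest cell was at 205 and the median at 434.

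Plasmacytoid dendritic cells, compared with B cells next, secrete type I interferon and have a large reticulum for a leukocyte. In cells passing 1 gate only, Xbp1, Ern1, Hsp90b1, Sec61b and 10 other members were at least 2-fold higher than in B cells in both libraries, while the PERK-ATF4 factors were not. The gates as defined gave no such member. Beside this, macrophage genes summed to 11163 CPM in the Crtc2+/+ plasmacytoid gate, 278 in the Crtc2-/- gate and 327 and 283 CPM in cells passing 1 gate only; their part in the ratios was not tested beyond that choice of cells. By count, 0 of 33 members were higher in both libraries with the gates as defined (background 1.4%) and 14 of 31 in cells passing 1 gate only (background 6.74%). None was lower (1.3% and 4.46% of all genes). Median log2 ratios of the members were 0.39 and 0.56 with the gates as defined and 1.17 and 1.05 in cells passing 1 gate only, where the medians of all genes were 0.01 and -0.02. The 14 are counted from 89 and 306 plasmacytoid and 526 and 1161 B cells.

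The values that follow are for cells passing 1 gate only. Xbp1 was at 263 CPM in plasmacytoid against 34.4 CPM in B cells of the Crtc2+/+ library, 7.65-fold (5.81 to 10.2). In the Crtc2-/- library it was at 280.5 against 41.6 CPM, 6.74-fold (5.82 to 7.82), so the intervals of both libraries overlapped. Ern1 was at 137 against 25.4 CPM and at 179 against 23.9 CPM. Sensor and factor of the branch were thus both higher, with log2 ratios from 2.05 to 2.62. Sec61b was at 942 against 238 CPM and at 948 against 255 CPM, and Hsp90b1 at 795 against 183 CPM and at 752 against 222 CPM. Sdf2l1 was at 127 against 25.0 CPM and at 83.5 against 28.7 CPM, and Manf at 336 against 116 CPM and at 362 against 118 CPM. Also higher in both libraries were Dnajc3, Edem1, Ssr1, Ssr4, Pdia6, Creld2, Pdia3 and P4hb, with log2 ratios between 1.05 and 1.59.

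The order of the members was not that of plasma cells. Pdia4, at 1208 CPM in plasma cells against 92.8 CPM in B cells by the same choice of cells, was at 95.02 against 101 CPM and at 78.8 against 92.8 CPM. Syvn1 was lower in plasmacytoid cells, at 8.42 against 41.4 CPM and at 10.3 against 28.2 CPM, with log2 ratios of -1.48 and -0.91, so that only the Crtc2+/+ library passed 2-fold. Derl3 had 2.41 against 1.497 CPM and 2.65 against 0.897 CPM and too few UMIs to be counted. Hspa5 was at 467 against 193 CPM and at 406 against 207 CPM, log2 ratios of 1.23 and 0.94. Of the PERK-ATF4 branch, Atf4 was at 56.5 against 75.9 CPM and at 48.3 against 77.2 CPM, Ddit3 at log2 ratios of -0.34 and -0.24, and Asns and Trib3 were not measured. B cells enter both this and the plasma cell comparison, so their ratios are not independent. Of the other pathway genes, 11 of 42 secretory, 5 of 11 ATF6-linked and 2 of 26 ATF4-linked genes were higher in both libraries. The COPII coat gene Sec24d, at 115 against 7.98 CPM and at 128 against 9.33 CPM, was the furthest of them.

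**Figure D4:**
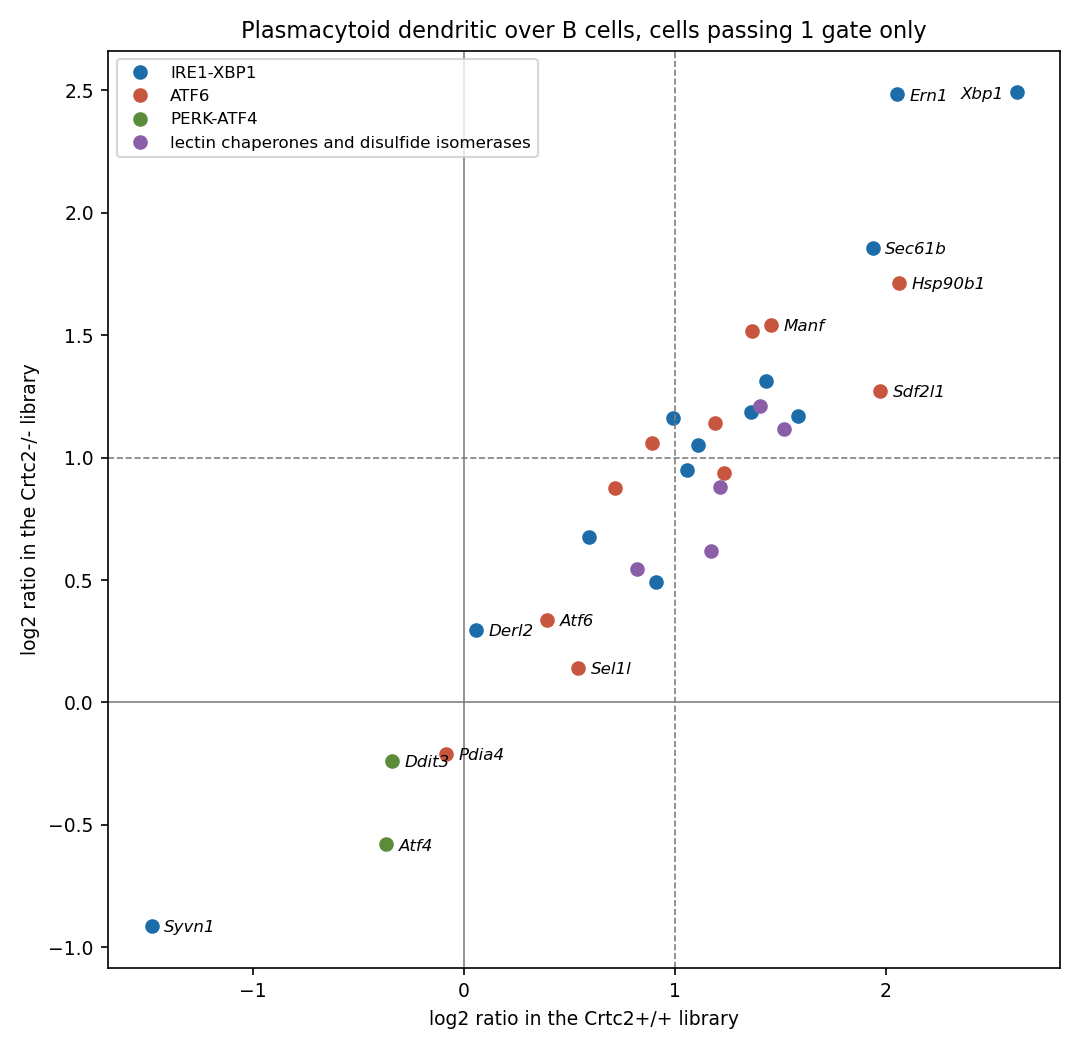
Log2 ratio of plasmacytoid dendritic over B cell CPM (10 CPM added to both) in cells passing 1 gate only, for the 31 measured members, with the Crtc2+/+ library on the x axis and the Crtc2-/- library on the y axis; dashed lines mark 2-fold. Xbp1 and Ern1 lie at the upper right in both libraries, and Syvn1 at the lower left.

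Hepatocytes, defined by Alb, Apoa1 and Ttr, were split by the epithelial keratin genes Krt8 and Krt18 into a keratin-high and a keratin-low gate. The split uses raw UMIs, so the gates also differ in depth. Median UMIs were 10233 and 15860.5 in keratin-high and 1979.5 and 2965 in keratin-low cells, with mitochondrial shares of 6.59% and 1.78% in the latter. The part of this in the ratios was not tested. The Crtc2+/+ keratin-high gate also held more RNA of the cholangiocyte list than of the hepatocyte list, as given below. Little of the module differed between these gates in both libraries. Atf6 was the 1 member lower in keratin-high cells, and Xbp1 was the member closest to being higher. As defined, 0 of 33 members were higher in both libraries (background 4.81%) and 1 was lower (background 4.87%), and the median log2 ratios were -0.14 and 0.12, where all genes had 0.25 and 0.11. Atf6 was at 57.9 against 221 CPM in the Crtc2+/+ library and at 71.7 against 279.8 CPM in the Crtc2-/- library, ratios of 0.263 (0.197 to 0.352) and 0.256 (0.203 to 0.325). In cells passing 1 gate only it was at 51.1 against 35.2 CPM and at 53.9 against 119.6 CPM, so the call ended in the Crtc2+/+ library; macrophage genes in the keratin-low gate were at 8105 and 3395 CPM as defined and at 476 and 314 CPM in cells passing 1 gate only. Xbp1 was at 133 against 69.1 CPM and at 414 against 153 CPM, log2 ratios of 0.85 and 1.38. Its log2 ratios in cells passing 1 gate only were 1.11 and 1.16, and it was the 1 member counted as higher (background 5.6%), with 0 lower (background 1.69%). Syvn1 had no UMI in the Crtc2+/+ keratin-low gate, with an upper bound of 9.81 CPM by its exact Poisson interval.

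The study's contrast of Crtc2-/- with Crtc2+/+ was read gate by gate, without plasma cells. In this contrast members past 2-fold in both directions were found in hepatocytes and, as defined, in plasmacytoid dendritic cells. In the keratin-high gate Xbp1 and Ern1, factor and sensor of the IRE1 branch, and the ATF4-linked genes Asns and Trib3 were higher in the Crtc2-/- library, and Ddit3 was lower, while Atf6 and the chaperones were within 2-fold with 10 CPM added. By count 4 of 33 members were higher (background 4.63%) and 1 was lower (background 4.92%). Among cells passing 1 gate only 3 were higher (background 4.96%) and 1 lower (background 5.75%). The member median was 0.26 and that of all genes -0.07. The gates did not hold like cells: summed hepatocyte markers were at 16281 and 42979 CPM and summed cholangiocyte markers at 37003 and 7159 CPM, the latter almost wholly Spp1 at 36145 and 6886 CPM. Of the others of that list Sox9 was at 427 and 159 CPM and Epcam at 294 and 90.3 CPM. Median depth was 10233 and 15860.5 UMIs and the median mitochondrial share 4.49% and 1.76%. The part of these differences in the values below was not tested, and genotype, animals and library cannot be told apart.

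Xbp1 was at 133 CPM (118 to 150, 273 UMIs) in the Crtc2+/+ and 414 CPM (390 to 438, 1136 UMIs) in the Crtc2-/- library, a ratio of 3.11 (2.72 to 3.56). Xbp1 was seen in 61.3% of the Crtc2+/+ and 87.5% of the Crtc2-/- cells, and after thinning to 1000 UMIs the intervals of those shares, 6.88 to 16.5% and 24.7 to 39.7%, did not overlap. Ern1 was at 54.0 and 129.6 CPM, a ratio of 2.40 (1.93 to 2.995), with a log2 ratio of 1.12 that was 0.88 in cells passing 1 gate only. The median log2 ratio of the IRE1-XBP1 branch was 0.27, and its summed level was 1238 and 2119 CPM. Below the threshold, Sec61b was at 349 and 637 CPM, Ssr4 at 208 and 347 CPM and Dnajb9 at 33.1 and 68.1 CPM, a ratio of 2.06 (1.55 to 2.76) with no CPM added. Asns had 3 and 57 UMIs, 1.46 and 20.8 CPM, a ratio of 14.2 (4.62 to 70.9). Trib3 had 15 and 91 UMIs, 7.30 and 33.1 CPM, a ratio of 4.54 (2.61 to 8.44). Ddit3, whose protein induces Trib3, went the other way, at 48.7 and 13.5 CPM (100 and 37 UMIs), a ratio of 0.277 (0.184 to 0.407). It was seen in 37.6% and 18.8% of cells, although the Crtc2-/- cells were deeper. Atf4 was at 46.3 and 83.0 CPM. In the ATF6 branch, with a median of 0.19, Pdia6 was the furthest at 130.5 and 246 CPM. The lowest members after Ddit3 were the lectins Canx, at 316 and 229.7 CPM, and Calr, at 336 and 265 CPM.

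Of the ATF4-linked genes outside the module, 5 of 30 were higher in the Crtc2-/- keratin-high gate and 1 lower. They included Cth, the cystathionine lyase, at 16.1 and 71.0 CPM, Atf3 at 88.6 and 289 CPM, and the cystine transporter Slc7a11 at 10.7 and 49.9 CPM, while Vldlr was lower, at 47.7 and 4.37 CPM. Of the secretory genes outside the module 1 of 42 was higher, Sec24d at 15.6 and 43.0 CPM, and of the ATF6-linked genes 0 of 11. The heat shock list had a median of 0.23.

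In keratin-low hepatocytes 28 members had enough UMIs, from 86 and 79 cells. Xbp1 was higher in the Crtc2-/- library, at 69.1 and 153 CPM (26 and 65 UMIs), as was Ern1, at 37.2 and 84.6 CPM (14 and 36 UMIs). Ddit3 was lower, at 50.5 and 14.1 CPM (19 and 6 UMIs). Creld2 was at 77.1 and 21.2 CPM (29 and 9 UMIs) and Derl2 at 77.1 and 32.9 CPM (29 and 14 UMIs). By count 2 were higher, 7.14% of the 28 (background 12.0%), and 3 lower, 10.7% (background 6.72%), so the share higher was below that of all genes. In cells passing 1 gate only 3 of 23 measured members were higher (background 27.6%), Ern1, Xbp1 and Atf6. Derl2, Manf and Creld2 were lower there (background 10.6%), and Ddit3 was not measured. With TMM scaling, which moved the median of all genes by -0.27, the log2 ratio of Xbp1 went from 1.04 to 0.75 and that of Ern1 from 1.003 to 0.74.

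**Figure D5:**
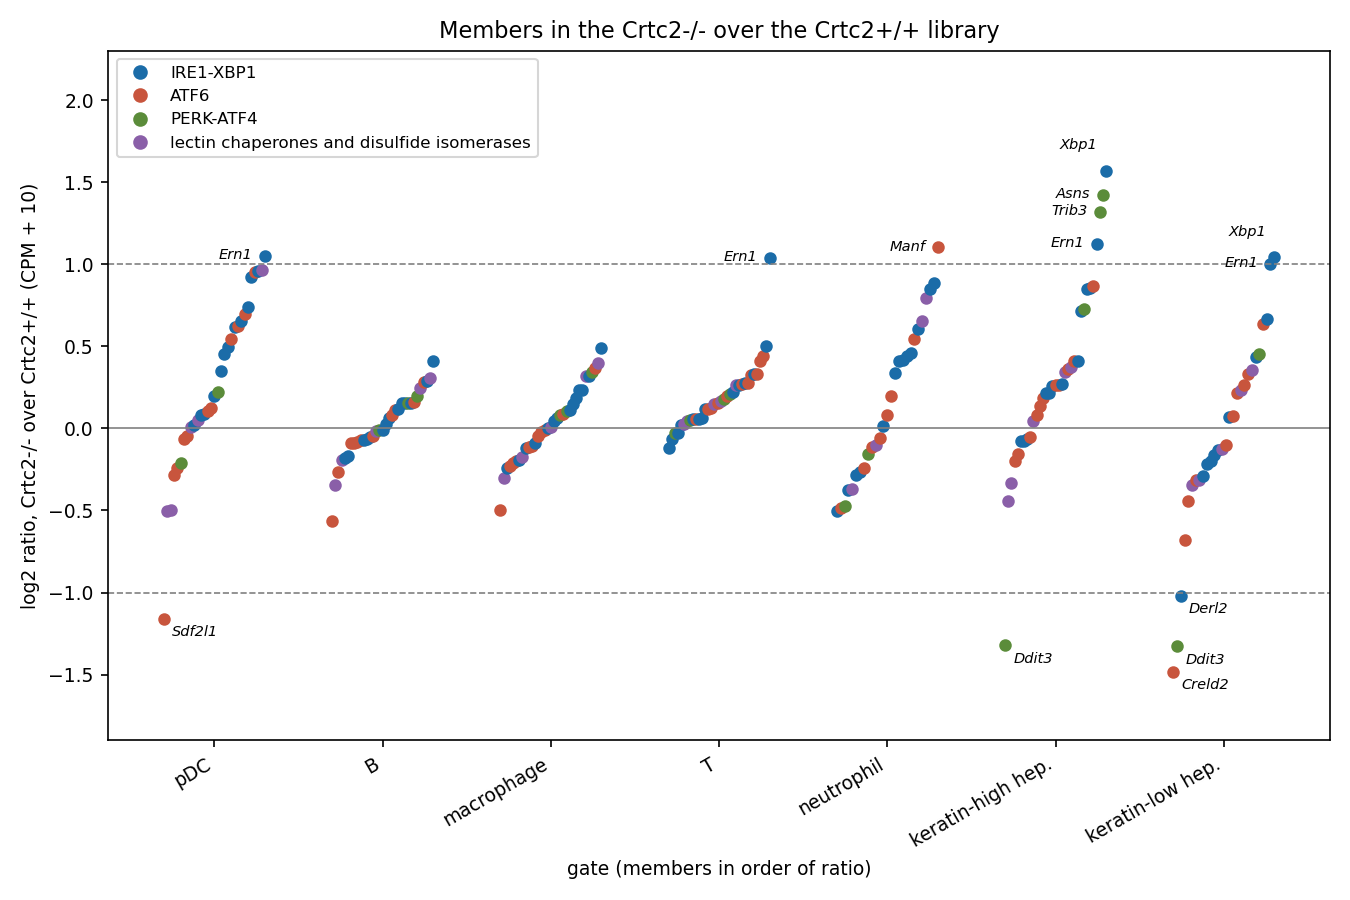
Log2 ratio of Crtc2-/- over Crtc2+/+ CPM (10 CPM added to both) for the measured members in each of 7 gates, ordered by ratio within a gate and named where the ratio passes 2-fold in either direction. The keratin-high and keratin-low gates spread most, with Xbp1 high and Ddit3 low in both, and B cells and macrophages have no member past 2-fold.

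T cells differed little by fold. Of 34 members 30 were above 0 on the log2 scale (24 with TMM scaling and 23 as a mean over cells). Their median was 0.16 where all genes had 0.03. All 11 of the ATF6 branch were above 0 (9 as a mean over cells), with a median of 0.27. The share of all genes above 0 is not set beside these counts, so they are not read as particular to the module. The heat shock list, outside the module, had a median of 0.34 in the same cells. Ern1 was the 1 member counted as higher (background 1.04%), at 55.8 and 125 CPM (573 and 1960 UMIs), a ratio of 2.24 (2.04 to 2.46). Its log2 ratio was 1.04, and 0.96 with TMM scaling, 0.97 as a mean over cells and 0.80 with called doublets kept. Single cells held from 0 to 15 Ern1 UMIs in the Crtc2+/+ and from 0 to 101 in the Crtc2-/- library, and the share of cells with Ern1 after thinning was 4.91% and 7.02%, a smaller gap than that of the CPM. Xbp1 was at 35.1 and 53.7 CPM, and at 30.6 and 37.4 CPM in cells passing 1 gate only; 4 plasma cells lay in the Crtc2-/- T cell gate, where plasma cell markers, Xbp1 and Derl3 left out, were at 180 and 419 CPM. Hsp90b1 was at 265 and 355 CPM, with log2 ratios of 0.41 and, in cells passing 1 gate only, 0.27. No member was lower by 2-fold (background 0.427%). Ern1 was again the 1 member higher in cells passing 1 gate only (background 0.609%), at 57.5 and 129 CPM, with 0 lower (background 0.525%).

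In B cells and macrophages no member passed 2-fold in either direction with 10 CPM added. Without it, low members went further: Asns in B cells had 2 and 20 UMIs, 0.377 and 1.55 CPM, and Derl3 in macrophages was at 1.67 and 4.57 CPM, a ratio of 2.73 (2.02 to 3.71). In B cells 1.65% of all genes were higher and 0.966% lower, and the member median was -0.01 against 0.02 for all genes. Of the measured members 16 of 33 were above 0 in all B cells and 25 of 31 in B cells passing 1 gate only, and of the ATF6 branch 4 of 11 and 10 of 11. The share of all genes above 0 is not set beside these counts, so they are not read as particular to the module. The median of all genes was 0.02 in all B cells and 0.05 in those passing 1 gate only. In macrophages the shares were 2.9% and 1.75% and the medians 0.01 and 0.02. The macrophage sums are the deepest, so their intervals are narrow: Xbp1 was at 97.1 and 140.2 CPM, a ratio of 1.44 (1.38 to 1.51), within 2-fold, with an interval that does not span 1. Of the macrophage gate 4.77% and 28.5% also passed the B cell gate, and in cells passing 1 gate only Xbp1 was at 96.95 and 139 CPM, a ratio of 1.43 (1.35 to 1.51). Canx was at 205 and 274 CPM, and Sdf2l1 lower at 211 and 146 CPM, with Pdia3 at 507 and 409 CPM. With the gates as defined, Xbp1 was thus higher in the Crtc2-/- library in 6 of the 7 gates compared, and past 2-fold in the hepatocyte gates. Neutrophils (172 and 130.5 CPM) were the exception, but 130.5 CPM lay within the Crtc2+/+ interval given above, so their direction is not resolved. In cells passing 1 gate only, the Xbp1 levels of both libraries lay closer together in plasmacytoid, B and T cells. These gates share libraries, so they are not independent.

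In plasmacytoid dendritic cells, as defined, Ern1 was higher at 82.6 and 182 CPM (background 4.67%) and Sdf2l1 lower at 200.3 and 84.0 CPM (background 6.86%), of 31 members. In cells passing 1 gate only no member passed 2-fold (background 0.676% higher and 0.51% lower), with log2 ratios of 0.37 for Ern1 and -0.56 for Sdf2l1, and that of Xbp1 went from 0.92 to 0.09. In neutrophils Manf was higher, at 16.8 and 47.6 CPM (4 and 62 UMIs; 1 of 27 members, background 10.3%, and 0 lower, background 2.54%), and its log2 ratio of 1.10 was 0.94 in cells passing 1 gate only. Several chaperones were low in neutrophils of both libraries: Hsp90b1 was at 79.9 and 121 CPM, Pdia4 had 0 and 14 UMIs, Txndc5 0 and 16, and Derl3 0 in both, with upper bounds of 15.5 CPM in the 75 Crtc2+/+ and 2.83 CPM in the 310 Crtc2-/- cells by exact Poisson intervals.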

How the data were processed

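Each library's matrix was deposited as unnormalised UMI counts, and the file headers name Cell Ranger 7.1.0 as its writer. The build is mm10 and Seurat is named as a further tool, without a version, per the submitters' processing notes. The annotation and the use of intronic reads were not given in the sources used here. Of 32285 features 99.6% matched GENCODE M21 identifiers (GRCm38), the source of gene coordinates.

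Kept barcodes had 500 or more UMIs, 250 or more genes and no more than 20% of UMIs from mitochondrial genes, and Scrublet (scanpy 1.11.5; 0.8% expected per 1000 cells, genes in at least 3 cells) removed 285 and 273 called doublets. Gates used raw UMIs: plasma cells Jchain of at least 50; B cells Cd79a and Cd79b of at least 2 with Jchain of at most 5; plasmacytoid dendritic cells Siglech of at least 2; hepatocytes Alb, Apoa1 and Ttr of at least 20, keratin-high with Krt8 and Krt18 of at least 4 and keratin-low with at most 3; macrophages C1qa, C1qb and C1qc of at least 20; neutrophils S100a8 and S100a9 of at least 20; T cells Cd3d, Cd3e and Cd3g of at least 2. Counts were summed per library and gate and scaled to CPM. Log2 ratios added 10 CPM, and a gene was measured with at least 20 UMIs over the sums compared. For shares, each cell was thinned once at random to 1000 UMIs. There was 1 library per genotype, so nothing was tested. The plan to compare plasma with B cells in both libraries could be met in Crtc2-/- only. TMM factors came from edgeR 4.0.16, other values from Python 3.11.15 with scipy 1.17.1, and the ratio code was checked on simulated counts.

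All 34 members may be named. Other pathway genes were named at the 3 highest or lowest log2 ratios of a list and contrast. The members and lists were chosen with earlier results of these data known.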

Additional observations from a re-analysis of the deposited data

How the results depend on the processing

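No paired analysis was possible because each genotype has 1 library. Over 55 results and 14 alternatives, 1 of them added after the data were seen, 560 values were recomputed. Of these, 165 counts of members stayed within 1.5 times of the reported count, and 282 medians and 37 shares stayed within the interval that counting error gives the reported value. The plasma over B count ran from 26 to 30 of the members over its 13 settings. The causes of the changes below were not tested. Values are counts of members past 2-fold or branch medians of the log2 ratio of Crtc2-/- over Crtc2+/+, unless another contrast is named, with the reported value in brackets.

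With 1 CPM added, 2 members were higher in plasmacytoid cells (1), 1 in macrophages (0) and 3 in neutrophils (1), and the PERK-ATF4 median was 1.43 in keratin-high cells (1.02), 0.41 in macrophages (0.11) and 0.25 in T cells (0.11). With at least 5 UMIs 3 were higher in neutrophils. With at least 100 UMIs 0 were higher and 0 lower in keratin-low cells (2 and 3), 0 higher in neutrophils, and the PERK-ATF4 median in macrophages was 0.21.

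With TMM, 0 were higher in plasmacytoid, keratin-low and T cells (1, 2 and 1) and 2 in neutrophils; medians were 0.32 for IRE1-XBP1 (0.50) and -0.16 for the lectin group (0.01) in plasmacytoid cells, and -0.21 for ATF6 (-0.11) and -0.0861 for the lectin group (0.01) in macrophages. TMM moved the median of all genes by 0.29 for plasma over B, -0.37 and -0.11 for keratin-high over keratin-low, -0.12 for plasmacytoid cells and -0.27 for keratin-low cells between genotypes.

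As a mean over cells, 4 were higher in plasmacytoid over B (0), 1 higher and 0 lower in keratin-high over keratin-low (0 and 1), 0 higher in plasmacytoid cells, neutrophils and T cells, and 6 in keratin-low cells; the lectin median was 0.15 in B cells (-0.01) and 0.0387 in T cells (0.15), and the ATF6 median in macrophages -0.065. With doublets kept, 0 were higher in plasmacytoid and T cells and 1 in keratin-low cells, and the lectin median in T cells was 0.0458. With at most 10% mitochondrial UMIs 1 was higher in keratin-low cells.

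In cells passing 1 gate only, 14 were higher in plasmacytoid over B, 1 higher and 0 lower in keratin-high over keratin-low, 0 higher and 0 lower in plasmacytoid cells, and 0 higher in neutrophils. B cell medians were 0.16 for ATF6 (-0.07), -0.0607 for PERK-ATF4, reversed from 0.15, and 0.36 for the lectin group; others were 0.0892 for IRE1-XBP1 in plasmacytoid cells, 0.51 for PERK-ATF4 in keratin-low cells (-0.44) and -0.0714 for ATF6 in macrophages. With doubled gate minimums, 9 were higher in plasmacytoid over B, 0 in plasmacytoid cells and 3 in neutrophils. B cell medians were 0.25 for IRE1-XBP1 (0.05), 0.19 for ATF6, -0.0934 for PERK-ATF4, again reversed, and 0.42 for the lectin group, and others 0.23 for IRE1-XBP1 in plasmacytoid cells, 0.58 in keratin-low cells (-0.13) and -0.073 for ATF6 in macrophages. With at least 3000 UMIs per cell 0 were higher and 1 lower in keratin-low cells and 2 higher in neutrophils.

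Thinned to 2000 UMIs, Xbp1 was seen in 71.9% of plasma cells, and Xbp1, Atf6 and Atf4 in 6.10%, 10.7% and 10.9% of Crtc2+/+ and 7.37%, 15.6% and 11.5% of Crtc2-/- T cells. Not thinned, the shares were 100%, 96.9% and 87.5% of plasma cells, 14.3%, 24.3% and 25.0% of Crtc2+/+ and 18.3%, 31.2% and 29.7% of Crtc2-/- T cells. Atf6 was in 5.76% of Crtc2+/+ T cells passing 1 gate only, thinned to 1000 UMIs.

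Depth limits Trib3, Asns and Derl3, which had under 20 UMIs in several sums, and the keratin-low gate, where 28 of 34 members were measured.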

Other observations

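Among the 32 plasma cells of the Crtc2-/- library, 15 had Igha as their leading heavy chain and 15 had Ighm, with 1 each for Ighg1 and Ighg2c. Per 10000 UMIs outside immunoglobulin genes, the 34 members took a median of 500.7 (range 205 to 807) in the Igha-led and 384 (108 to 487) in the Ighm-led cells. The ATF6 branch had medians of 226 and 146, the IRE1-XBP1 branch 148 and 144, and the lectin chaperones and isomerases 86.6 and 62.5. The PERK-ATF4 branch had low values, 1.93 (0 to 13.1) and 2.92 (0 to 9.33), so its direction is not resolved. These branch medians include the Ighm-led cells with Ms4a1 or Cd3 UMIs described next. Of the Ighm-led cells 4, among them the 3 lowest, held at least 10 UMIs of Ms4a1 or the Cd3 genes. Without them the Ighm-led median was 433 (239 to 487, 11 cells), and no Igha-led cell was left out. Both sets overlapped in every range given, come from 1 library, and were split after the values were seen. The Igha-led cells held less immunoglobulin RNA, 37.1% of UMIs at the median against 59.6%.

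Cells that passed no gate, 1578 in the Crtc2+/+ and 2634 in the Crtc2-/- library, had no member past 2-fold between the libraries with 10 CPM added to both. Xbp1 was at 103 and 121 CPM there, Ern1 at 103 and 124 CPM and Asns at 1.36 and 4.17 CPM (17 and 100 UMIs), with an interval of the ratio, nothing added, of 1.82 to 5.45.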
